A study of Homo sapiens with 6 samples.

Results

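HEK293 cells transfected with siRNA against circRAB3IP (siRAB3IP) were compared directly with HEK293 cells transfected with siRNA against circCAMSAP1 (siCAMSAP1). The series holds 6 poly(A) RNA libraries in 3 groups of 2, and 4 of the 6 entered this comparison. HEK293 is a human embryonic kidney line with mixed epithelial and neuronal features. All cells received Lipofectamine RNAiMAX, the carrier for siRNA, and were lysed in TRIzol 48 hours later, and the third group received a control siRNA. No control library entered the fit, so a change that both targeting siRNAs made to the same extent is not seen here, and the control libraries are given only as a level. Whether the 2 libraries per group stem from different cultures is not in the labels, and the p-values reflect only how far libraries differ, which may be technical.

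The libraries were grouped by the identifiers in the deposited count table. The authors' deposited result tables name groups and replicates and not identifiers. By their values, all 8 of their columns matched a library of the same group under this grouping. The sample titles place 3 of these 4 libraries in another group, and the genotype field names the knockdowns in yet another way. Which set of names is right is not given in the sources used here. Grouped by titles, siCAMSAP1 replicate 1 and control replicate 2 stood against siRAB3IP replicate 2 and siCAMSAP1 replicate 2, as the identifiers name them. With that grouping edgeR's quasi-likelihood test called 0 genes higher and 0 lower, against 2154 called by the identifiers. Of 21627 genes, 643 had an unadjusted p under 0.05 in that test. DESeq2 was run on the grouping by identifiers only. Every direction below therefore rests on the identifiers, and siRAB3IP and siCAMSAP1 stand for the libraries so named.

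Circular RNAs such as circRAB3IP and circCAMSAP1 are closed loops made when a downstream splice site is joined to an upstream one, and they share exons with the linear mRNA of the gene that hosts them. They carry no poly(A) tail, so libraries made from poly(A) RNA read the linear mRNA. An siRNA guides an Argonaute protein to a fully matching RNA, which is cut. The same guide can also act on other mRNAs in the manner of a microRNA, through a short match between its 5' end, the seed, and a site in the mRNA's 3' untranslated region (3' UTR). The linear RAB3IP mRNA encodes Rabin8, an exchange factor that activates RAB8 on vesicles, and CAMSAP1 encodes a protein that binds the minus ends of microtubules.

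The host genes' linear mRNAs were not called by edgeR's quasi-likelihood test without a replicate block. RAB3IP (chr12:70132461-70216984, hg19) read 68.4 and 66.6 CPM (counts scaled to a common library size) in the siRAB3IP libraries and 56.2 and 61.2 CPM in the siCAMSAP1 libraries. Its log2 fold change, siRAB3IP over siCAMSAP1, was 0.19 with a standard error (SE) of 0.08 and an adjusted p of 0.161. CAMSAP1 (chr9:138700333-138799074) read 156 and 150 CPM in siRAB3IP against 139 and 137 CPM in siCAMSAP1 (log2 fold change 0.14, SE 0.07, adjusted p = 0.266). In neither gene did the groups overlap, with siRAB3IP above, which was so for 26.9% of all genes tested. With a replicate block by order of identifier RAB3IP was called higher (log2 fold change 0.19, adjusted p = 0.0179), and with one by title numbers it was not (adjusted p = 0.331). The knockdown of the circular RNAs themselves is not read by these libraries.

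Between 38108240 and 39188378 fragments were assigned to genes in each of the 4 libraries, and the 10 most abundant genes took at most 14.9% of them. Of the markers of HEK293, KRT8, KRT18, VIM and CDH2 were abundant, while NEFM and PAX2 stayed at or below 0.335 CPM in the 4 libraries. KRT18 was lower in siRAB3IP (242 and 282 CPM against 364 and 355 CPM, log2 fold change -0.46, SE 0.09, adjusted p = 0.00656) and VIM was higher (235 and 330 CPM against 174 and 207 CPM, log2 fold change 0.56, SE 0.14, adjusted p = 0.0229), though DESeq2 did not call VIM. The 8 matched HEK293 markers summed to 1101 and 1368 CPM in siRAB3IP and to 1372 and 1364 CPM in siCAMSAP1. The 18 markers of other cell types summed to between 16.04 and 24.5 CPM across the 4 libraries, and HBB, PECAM1 and UMOD were at 0 in all 4. Most of that sum came from COL1A1, LUM and VWF, a choice of names made after their values were seen. Of the 5 tested, 2 were called higher (VWF and HBA1, the latter not by DESeq2) and 1 lower (COL1A1). Their part in the results was not tested.

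Of 21378 genes tested, 1214 (5.68%) were higher and 940 (4.4%) were lower in siRAB3IP than in siCAMSAP1 at an adjusted p under 0.05, together 10.1%. Of the 2154 genes called, 1952 were protein coding. The median size of a called difference was 0.51 on the log2 scale for the higher genes and -0.49 for the lower ones, and 322 genes passed a 2-fold difference, 243 of them higher in siRAB3IP. In all 2154 called genes the groups did not overlap, against 52.7% of all genes tested (26.9% with siRAB3IP above and 25.8% with siRAB3IP below). Without siRAB3IP replicate 2 the counts were 799 higher and 612 lower, and with no filter on low counts, over 40232 genes, they were 193 and 120. The median log2 fold change over all genes tested was -0.0076.

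The control libraries show on which side of an untargeted level each difference lay. Among the 1214 higher genes the control mean was nearer to siCAMSAP1 in 951 and nearer to siRAB3IP in 263. Among the 940 lower genes it was nearer to siCAMSAP1 in 783 and nearer to siRAB3IP in 157. Over all genes tested the control was nearer to siCAMSAP1 in 61.8%. By strict placement the control libraries overlapped only siCAMSAP1 in 488 higher and 446 lower genes, and only siRAB3IP in 117 higher and 71 lower genes. They lay between the groups in 391 higher and 280 lower genes, below all 4 libraries in 193 higher and 11 lower genes, and above all 4 in 16 higher and 119 lower genes. Over all genes tested the shares were 26.6% overlapping only siCAMSAP1, 13.8% overlapping only siRAB3IP, 6.41% between, 10.8% below and 10.2% above. This is a description with no test.

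**Figure D1:**
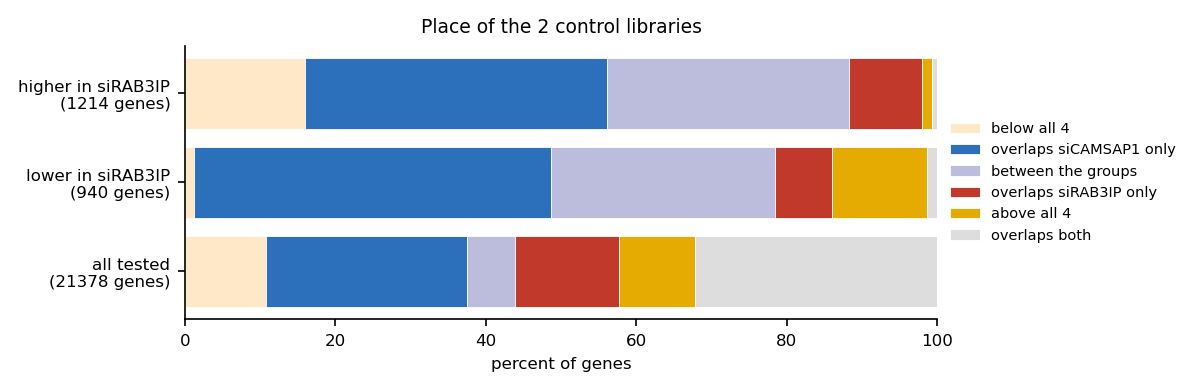
Place of the 2 control libraries relative to the 4 compared libraries, as percent of genes, for the genes called higher, the genes called lower and all genes tested. The control overlapped only siCAMSAP1 in 40.2% of the higher genes and 47.4% of the lower genes, against 26.6% of all genes tested.

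Carriers of one 8-base word in the 3' UTR stood lower in siRAB3IP, and carriers of another stood lower in siCAMSAP1. Words were ranked in the replicate 1 libraries by a score, the mean log2 ratio of siRAB3IP over siCAMSAP1 of the carriers minus that of the other genes, divided by the carriers' standard error. Carriers are genes whose longest annotated 3' UTR (GENCODE 29, GRCh38) holds the word. The leading word of each direction was then described in the replicate 2 libraries. The ranking as measured, over 12802 genes averaging 1 CPM or more, was led by words of extreme base composition that showed almost no difference in replicate 2. The log2 ratio followed the GC content of the 3' UTR across genes in replicate 1 (r = -0.23) and hardly in replicate 2 (r = -0.04); genes are not independent replicates, and no p is given. After the trend with GC content and length had been removed, a second ranking chosen after seeing the first, the leading words were TGACTTAA for genes lower in siRAB3IP and ACATCCCA for genes higher in siRAB3IP, that is, lower in siCAMSAP1. The next words on each side were mostly the same words shifted by 1 or 2 bases. The sites below are shown because the carriers of each word leaned on average in one direction, though most carriers were not called. The word is in capitals, within up to 30 bases of the first site in the 3' UTR. Shown for each word are the 5 carriers with the largest difference among those called in the word's own direction and averaging 5 CPM or more. Called carriers that went against the word's direction are not shown and are counted below.
SGPL1: gagccttagttTGACTTAAcacttttgtag
RASSF2: agggaaggtgaTGACTTAAatggcaggggg
CCND1: ccttccatctcTGACTTAAgcaaaagaaaa
KIF5C: caaacctgcttTGACTTAAtttatttgtta
WTIP: aggacaagattTGACTTAAattaagttttt
CCBE1: cACATCCCAacaccgtcacg
THSD4: agcagctcacaACATCCCAgaatgggaggc
LCLAT1: atctgtaatatACATCCCAgaataaaggag
REEP1: aggtcaggggaACATCCCAgtaaaagagaa
PACSIN2: tgaacaagcttACATCCCAttttgagtgaa
On GRCh38 the TGACTTAA words lie at chr10:70879759-70879766 in SGPL1, chr20:4781563-4781570 in RASSF2, chr11:69651450-69651457 in CCND1, chr2:149024643-149024650 in KIF5C and chr19:34501104-34501111 in WTIP. The ACATCCCA words lie at chr18:59435899-59435906 in CCBE1, chr15:71777986-71777993 in THSD4, chr2:30644191-30644198 in LCLAT1, chr2:86216298-86216305 in REEP1 and chr22:42870964-42870971 in PACSIN2. RASSF2, CCBE1, REEP1 and PACSIN2 are on the minus strand, and all sites are printed as in the mRNA, 5' to 3'. CCND1 holds 2 copies of its word and each of the other genes shown holds 1.

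The 624 carriers of TGACTTAA had a mean log2 ratio of -0.10 in the replicate 2 libraries, against 0.01 in the other 12178 genes. The score used replicate 1 alone, but the second ranking was chosen after the first had been seen in replicate 2, and TGACTTAA was known from earlier results of these data, so replicate 2 is not independent of the choice. In replicate 1 the mean was -0.04 against 0.01. The mean in replicate 2 was -0.10 for the 572 genes with 1 site and -0.17 for the 52 genes with 2 or more. Over all 4 libraries 107 carriers, or 17.1%, were called lower, against 6.2% of the other genes, and 39 (6.25%) were called higher, against 7.87%. For 95 of the 107 the control was nearer to siCAMSAP1, as it was for 626 of the 755 called lower among the other genes. Set against the control, the carriers stood at a mean log2 of -0.09 in siRAB3IP and -0.02 in siCAMSAP1; these values share their control libraries.

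The 435 carriers of ACATCCCA went the other way. Their mean log2 ratio in replicate 2 was 0.14, against -0.0002 in the other 12367 genes, and in replicate 1 it was 0.13 against 0.01. Of these carriers 94 (21.6%) were called higher, against 7.31% of the other genes, and 20 (4.6%) were called lower, against 6.81%. With the control as the level, the carriers stood at a mean log2 of 0.04 in siRAB3IP and -0.10 in siCAMSAP1. For 38 of the 94 called higher the control was nearer to siRAB3IP, against 191 of the 904 called higher among the other genes. The 415 genes with 1 site had a mean of 0.13 in replicate 2 and the 20 genes with 2 or more had 0.18. In replicate 1 the means were 0.126 and 0.133, and the share called higher was 21.9% with 1 site and 15% with 2 or more. Of the 139 genes given here with values, most of them chosen because they were called, 18 carry TGACTTAA: 14 were lower, 3 were higher (PCLO at 1.48, SLC7A11 at 1.14 and EIF2AK2 at 0.27 on the log2 scale), and RAB3IP itself was not called. The 9 that carry ACATCCCA were all higher. The 5 carriers shown for each word are among these genes and were picked as called in its direction. The counts among the 139 genes were thus partly fixed by the choice of genes. The share called comes from all 4 libraries, of which the replicate 1 pair chose the words, and 40 genes carry both words.

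Among 2370 mature human microRNAs of RefSeq (GRCh38.p14), 0 have bases 2 to 8 that pair with the first 7 bases of TGACTTAA (UAAGUCA) or of ACATCCCA (GGGAUGU). For the last 7 bases the number was 0 for TGACTTAA (UUAAGUC) and 1, hsa-miR-6728-5p, for ACATCCCA (UGGGAUG). The siRNA sequences were not used here, so whether the words match the seed of either siRNA was not tested. A word in a 3' UTR is a match of letters and not a shown site of action.

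**Figure D2:**
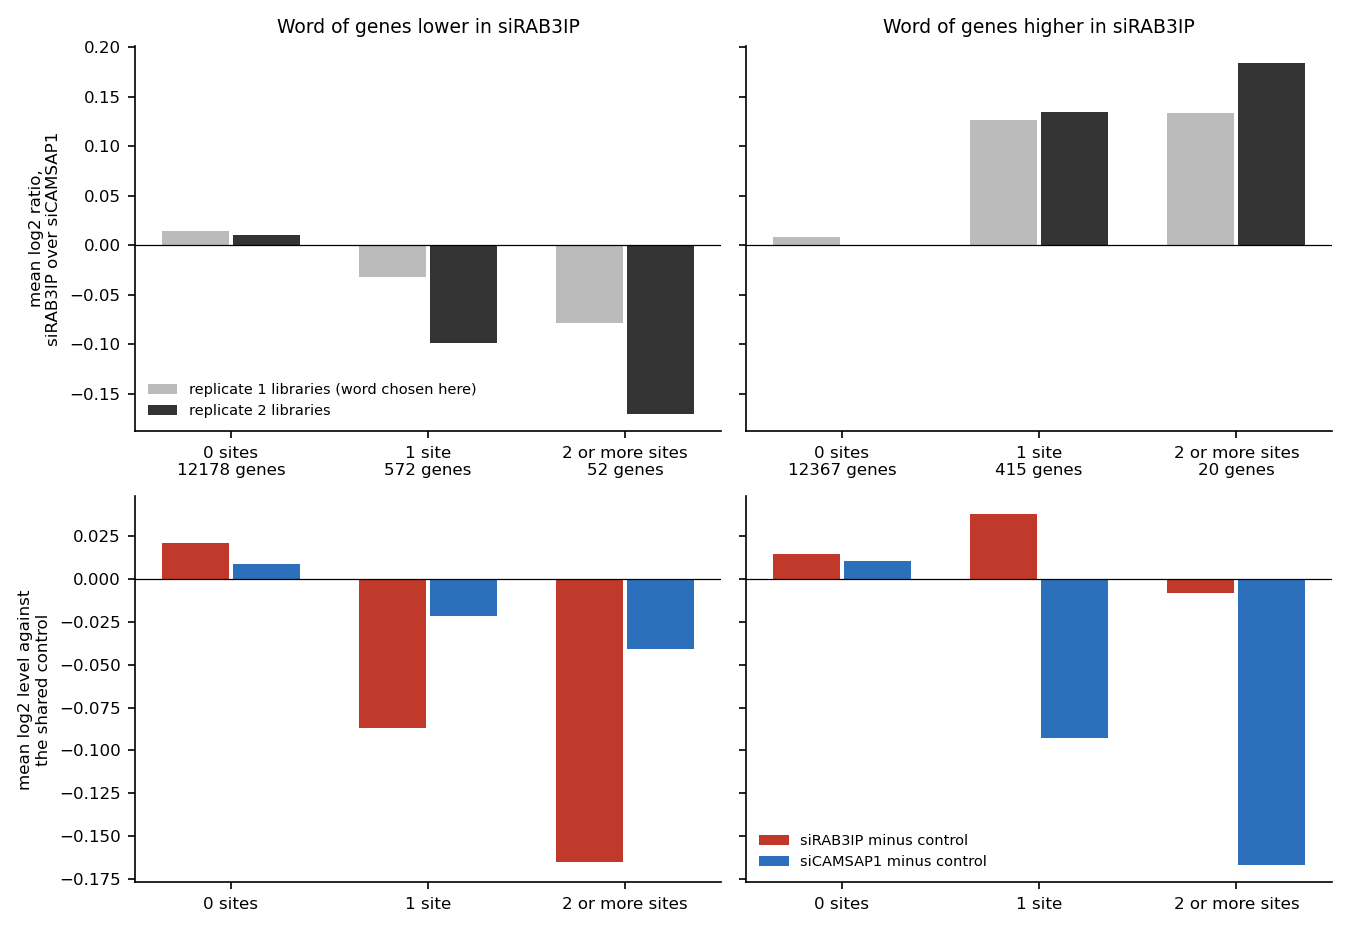
Mean log2 ratio by number of words in the 3' UTR. Upper panels give siRAB3IP over siCAMSAP1 in replicate 1, where the words were chosen, and in replicate 2; lower panels give each siRNA group against the shared control over both replicates. Carriers of the word on the left stood lower in siRAB3IP, and carriers of the word on the right stood lower in siCAMSAP1.

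Of the carriers shown, SGPL1 (chr10:72575717-72640930, hg19), the lyase that irreversibly breaks down sphingosine 1-phosphate, had the largest negative difference among called genes averaging 5 CPM or more. It read 34.3 and 32.9 CPM in siRAB3IP, 101 and 109 CPM in siCAMSAP1, and 85.5 and 94.2 CPM in the control. Its log2 fold change was -1.66 (SE 0.08, adjusted p = 3.37e-06). CCND1, the cyclin D1 that drives cells through G1, read 50.9 and 51.9 CPM in siRAB3IP, 113 and 115 CPM in siCAMSAP1, and 111 and 121 CPM in the control (log2 fold change -1.16, SE 0.08, adjusted p = 1.56e-05). RASSF2, a Ras-association domain protein, read 6.48 and 5.54 CPM against 13.6 and 16.7 CPM, with the control at 14.2 and 18.3 CPM (log2 fold change -1.34, SE 0.15). In these 3 genes siRAB3IP stood apart and the control lay with or close to siCAMSAP1. KIF5C, a kinesin heavy chain of neurons, was otherwise: it read 10.4 and 7.75 CPM in siRAB3IP and 20.9 and 16.5 CPM in siCAMSAP1, while the control libraries at 9.84 and 11.9 CPM lay with siRAB3IP (log2 fold change -1.05, SE 0.16). WTIP, an Ajuba-family LIM protein, had its control libraries at 12.5 and 12.4 CPM, between 9.64 and 8.57 CPM in siRAB3IP and 17.8 and 17.6 CPM in siCAMSAP1.

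On the side of the other word, PACSIN2, a membrane-bending protein of endocytosis, read 63.8 and 69.2 CPM in siRAB3IP and 32.2 and 31.3 CPM in siCAMSAP1, with the control at 65 and 58.3 CPM. Its log2 fold change was 1.06 (SE 0.08, adjusted p = 6.97e-05), and here siCAMSAP1 stood apart. LCLAT1, an acyltransferase that remodels cardiolipin and phosphatidylinositol, read 68.3 and 61.6 CPM in siRAB3IP against 30.2 and 29.4 CPM in siCAMSAP1, and 53 and 49.8 CPM in the control (log2 fold change 1.12, SE 0.09). CCBE1, a secreted protein required for lymphatic vessel growth, read 13.9 and 22.1 CPM against 4.81 and 6.87 CPM, with the control at 11.8 and 13.9 CPM (log2 fold change 1.62, SE 0.22). For THSD4, a thrombospondin-type matrix protein, and REEP1, which shapes the endoplasmic reticulum, the control lay between the groups or near siCAMSAP1: THSD4 read 19.9 and 23.8 CPM against 7.03 and 8.76 CPM with the control at 10.4 and 14.1 CPM, and REEP1 read 18.6 and 17.3 CPM against 8.49 and 8.28 CPM with the control at 11.4 and 9.03 CPM. PACSIN2 shares exon sequence with ARFGAP3 and CCND1 with LTO1, and reads were counted without strand, so part of those counts could belong to the partner gene.

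The 12 called genes with the largest positive differences at 5 CPM or more on average include CCBE1 and THSD4, described above. OLFM1 (chr9:137967268-138013025, hg19), a secreted glycoprotein abundant in brain, read 10.3 and 14.2 CPM in siRAB3IP, 2.34 and 1.62 CPM in siCAMSAP1, and 5.55 and 3.78 CPM in the control. Its log2 fold change was 2.62 (SE 0.21, adjusted p = 8.13e-05), and the control lay between the groups. BMP2 (chr20:6748311-6760927), a bone morphogenetic protein ligand, read 84.4 and 70.9 CPM in siRAB3IP and 24.7 and 22.7 CPM in siCAMSAP1, with the control at 26.9 and 23.7 CPM (log2 fold change 1.70, SE 0.10, adjusted p = 1.11e-05). The chemokine CXCL8 was uneven within siRAB3IP, at 32.7 and 12.8 CPM, against 5.51 and 5.68 CPM in siCAMSAP1 (log2 fold change 2.01, SE 0.32). Both siRAB3IP libraries nevertheless stood above both siCAMSAP1 libraries, and the control libraries were lowest at 3.43 and 2.14 CPM. SMOC1, a secreted calcium-binding matrix protein, read 5.9 and 9.77 CPM against 2.24 and 2.85 CPM, and its control libraries at 6.46 and 7.01 CPM lay among those of siRAB3IP.

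RAB27B, a GTPase that docks secretory vesicles, read 10.2 and 10.7 CPM in siRAB3IP and 3.81 and 3.11 CPM in siCAMSAP1 (log2 fold change 1.59, SE 0.16). PCLO, a scaffold of the presynaptic release zone, read 52.3 and 56 CPM against 16.2 and 22.4 CPM (log2 fold change 1.48, SE 0.13), and its control libraries at 18.8 and 22.1 CPM overlapped siCAMSAP1. DNAH17, an axonemal dynein heavy chain, read 30.4 and 34.1 CPM against 9.96 and 11 CPM, with the control below both at 6.51 and 6.14 CPM. It overlaps PGS1. The remaining genes of the 12 were the long noncoding RNA LINC02154 (log2 fold change 1.90), C11orf96 (2.24), which overlaps an unnamed gene, and RPLP0P2 (1.46), a pseudogene whose reads can also come from its near-identical parent gene RPLP0.

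The 12 largest negative differences by the same rule include SGPL1, RASSF2 and CCND1, described above. ODC1, the enzyme that starts polyamine synthesis, read 158 and 123 CPM in siRAB3IP, 349 and 305 CPM in siCAMSAP1, and 324 and 257 CPM in the control (log2 fold change -1.23, SE 0.11, adjusted p = 0.000118). LIMK1, the kinase that inactivates cofilin, read 18.6 and 16.1 CPM against 42.1 and 37.8 CPM, with the control at 35.7 and 29.9 CPM (log2 fold change -1.21, SE 0.10). TMEM14C, a mitochondrial membrane protein needed for heme synthesis, read 34.9 and 32.3 CPM against 76.5 and 78.2 CPM (log2 fold change -1.21, SE 0.08, adjusted p = 1.81e-05). In each of these the control was nearer to siCAMSAP1. KRT17, a keratin, differed in its pattern: it read 13.8 and 23.8 CPM in siRAB3IP and 31.1 and 53.1 CPM in siCAMSAP1, while the control libraries at 8.31 and 7.88 CPM were below both groups (log2 fold change -1.17, SE 0.25, adjusted p = 0.0118), and with DESeq2 it was not called. COL27A1 (-1.40), CSDC2 (-1.26), EFEMP2 (-1.16), STON1 (-1.14) and the noncoding RNA BCYRN1 (-1.13) complete the 12 by log2 fold change. CSDC2, KRT17, EFEMP2, STON1 and BCYRN1 overlap exons of PMM1, JUP, MUS81, STON1-GTF2A1L and EPCAM-DT.

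**Figure D3:**
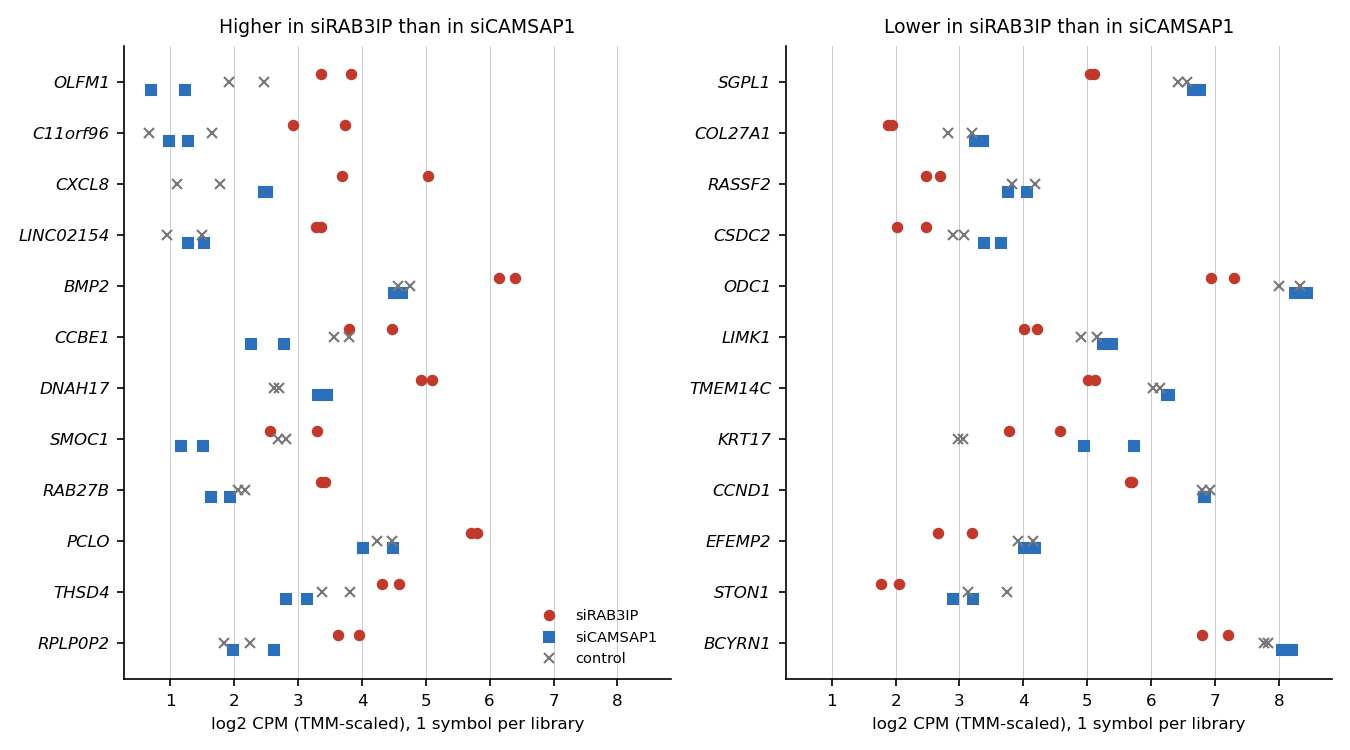
Level (log2 CPM) in each library for the 12 largest positive and 12 largest negative differences, with siRAB3IP as circles, siCAMSAP1 as squares and the control as crosses. In every gene both circles lie on one side of both squares; for SMOC1 the control lies with siRAB3IP, and for SGPL1 and CCND1 it lies near siCAMSAP1.

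The gene lists that follow were chosen with earlier results of these data known, so their counts are a description. They are read against 5.68% of tested genes called higher and 4.4% called lower, shares that rise with level. Refitted over the 11725 genes averaging 5 CPM or more, 1080 were higher and 965 lower. Of the 12178 genes with a scored 3' UTR without TGACTTAA, 7.87% were called higher and 6.2% lower. A list of abundant genes can thus pass the shares over all genes without standing out. Among the pathway lists the largest share called was that of ATF4 and the integrated stress response. In this response phosphorylation of the initiation factor eIF2 slows translation and raises ATF4, which drives genes for amino acid uptake and synthesis. Of 35 tested members 20 were higher and 1 was lower in siRAB3IP, and the list's median log2 fold change was 0.45. ASNS, asparagine synthetase, read 91.2 and 96.8 CPM in siRAB3IP, 47 and 50.6 CPM in siCAMSAP1, and 65 and 59.7 CPM in the control (log2 fold change 0.94, SE 0.08, adjusted p = 9.98e-05). SLC7A11, the cystine importer, read 49.5 and 45.7 CPM against 19 and 24 CPM (log2 fold change 1.14, SE 0.11), and overlaps its antisense gene. PSAT1, of serine synthesis, read 103 and 94.8 CPM against 57.2 and 62.3 CPM, with the control between them at 79.6 and 75.9 CPM. SLC7A1, the arginine and lysine importer, read 124 and 117 CPM against 77.2 and 71.8 CPM, and the control libraries at 78.6 and 77.4 CPM lay just above siCAMSAP1. ATF4 itself, named after its values were seen, read 384 and 329 CPM against 265 and 253 CPM (log2 fold change 0.45, SE 0.08, adjusted p = 0.00658). The one lower member was EIF2AK4, the eIF2 kinase that senses uncharged tRNA, at 92 and 89.5 CPM against 118 and 115 CPM (log2 fold change -0.37, SE 0.07). For 13 of the 20 higher members the control was nearer to siCAMSAP1 and for 7 it was nearer to siRAB3IP.

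Of the 18 cytosolic aminoacyl-tRNA synthetases, which charge tRNAs and include known ATF4 targets, 7 were higher and 0 lower, with a median of 0.23. AARS1 read 190 and 207 CPM in siRAB3IP and 117 and 120 CPM in siCAMSAP1, with the control at 138 and 146 CPM (log2 fold change 0.74, SE 0.08). GARS1 (0.49) and SARS1 (0.38) followed on the log2 scale. Of 24 genes of the endoplasmic reticulum's chaperones and unfolded protein response, 7 were higher and 0 lower, and the median was 0.11. XBP1, a transcription factor of that response, read 208 and 193 CPM against 114 and 127 CPM, and its control libraries at 112 and 109 CPM lay below siCAMSAP1 (log2 fold change 0.72, SE 0.08, adjusted p = 0.000463). HERPUD1, which serves degradation at the endoplasmic reticulum, read 37.8 and 33.3 CPM against 25.5 and 25.9 CPM. In all 7 the control was nearer to siCAMSAP1.

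**Figure D4:**
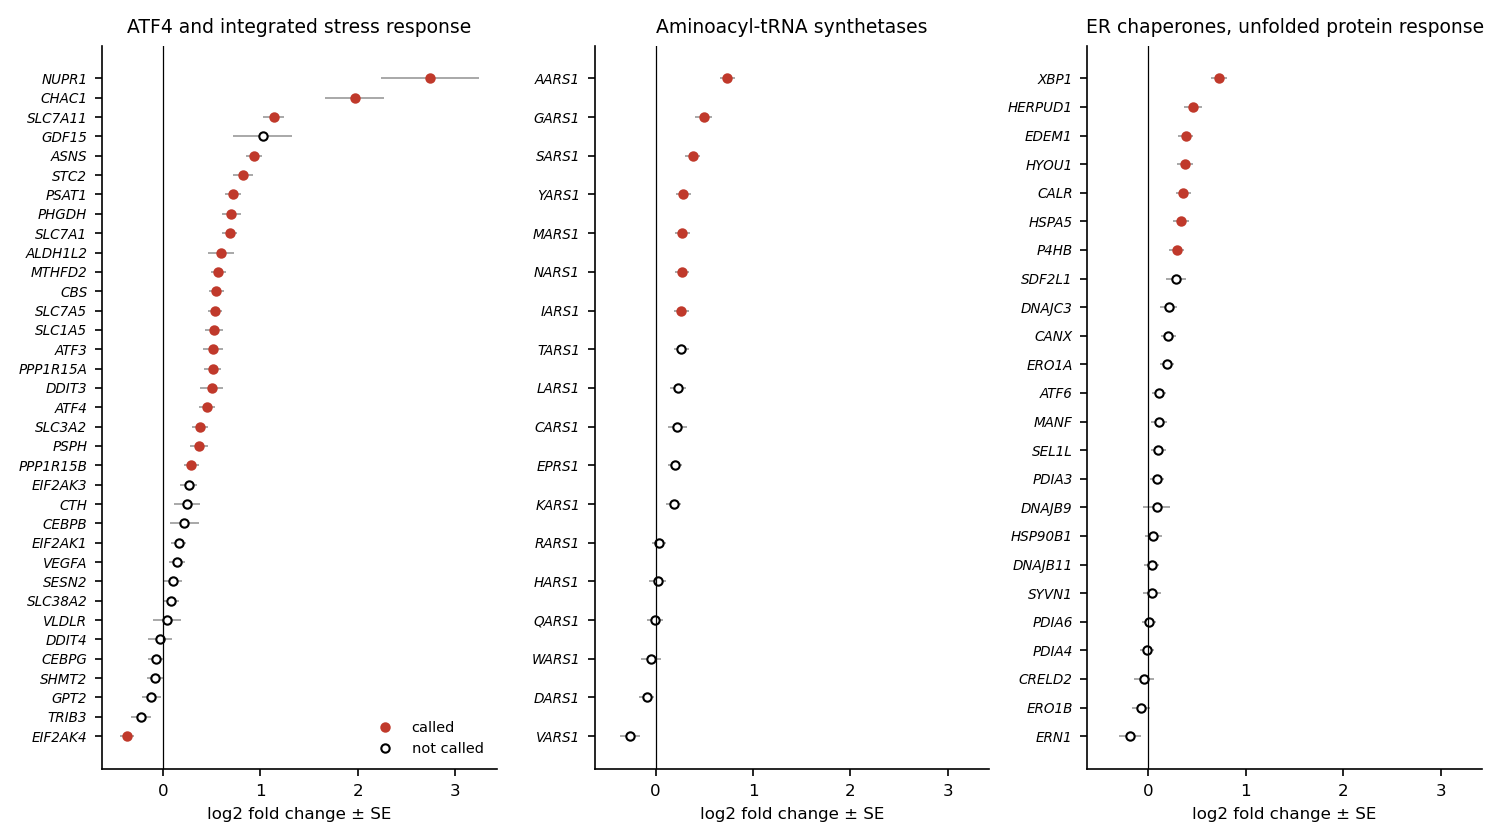
Log2 fold change with its standard error, siRAB3IP over siCAMSAP1, for every tested member of 3 lists, with filled points for genes called at an adjusted p under 0.05. Called members of the synthetase and endoplasmic reticulum lists all lie above 0, and EIF2AK4 is the single called member below 0 in the ATF4 list.

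Cell cycle genes were described by phase. Of 23 G1 cyclins, kinases and inhibitors, 6 were higher and 3 lower. CDKN1A, the inhibitor p21, read 90.6 and 84.1 CPM in siRAB3IP, 54.4 and 43 CPM in siCAMSAP1, and 78.9 and 67 CPM in the control (log2 fold change 0.84, SE 0.10, adjusted p = 0.000666). CDK6, a kinase partner of cyclin D1, read 160 and 180 CPM against 100 and 121 CPM, and the control libraries at 120 and 147 CPM lay from within siCAMSAP1 to between the groups. E2F1, which drives S phase genes, read 116 and 113 CPM against 87.2 and 84.9 CPM. Of 38 DNA replication genes 4 were higher (RRM2, GINS1, TK1 and GINS3, by 0.35 to 0.46 on the log2 scale) and 0 lower, with a median of 0.01. Of 40 genes of mitosis and G2/M, 0 were higher and 7 were lower, with a median of -0.08. HMMR, a spindle protein, read 56.7 and 47.3 CPM against 83.2 and 84.8 CPM (log2 fold change -0.70, SE 0.09, adjusted p = 0.000965). BUB1, of the spindle checkpoint, and KIF23, a kinesin of cytokinesis, had log2 fold changes of -0.34 each. KIF23's control libraries at 152 and 146 CPM lay with siRAB3IP at 155 and 140 CPM, apart from siCAMSAP1 at 184 and 185 CPM.

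Of 25 p53 targets, 9 were higher and 3 lower, and the median was 0.19. PMAIP1, the pro-apoptotic NOXA, read 181 and 150 CPM in siRAB3IP, 99.3 and 93.2 CPM in siCAMSAP1, and 109 and 102 CPM in the control (log2 fold change 0.77, SE 0.09, adjusted p = 0.00058). AEN, an apoptosis-enhancing nuclease, read 170 and 183 CPM against 121 and 118 CPM, and GADD45A, of DNA damage arrest, 29.1 and 25.6 CPM against 18.4 and 17.3 CPM. The 3 lower members were XPC, SESN1 and CCNG2, with log2 fold changes of -0.36, -0.37 and -0.49. Of 25 tested BCL2 family and apoptosis genes, 2 were higher and 2 lower. BMF, which counters BCL2, read 7.99 and 10.8 CPM against 14.5 and 16.9 CPM, and the control was above all 4 at 19.3 and 25.6 CPM.

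Of 26 tested chemokines, cytokines and receptors that NF-kB activates, 10 were higher and 2 lower in siRAB3IP, with a median of 0.32, and for all 10 the control was nearer to siCAMSAP1. TNFRSF9, a T cell costimulatory receptor, read 12.9 and 12.2 CPM in siRAB3IP, 5.64 and 6.01 CPM in siCAMSAP1, and 2.01 and 1.64 CPM in the control (log2 fold change 1.10, SE 0.13, adjusted p = 0.000558). TNFRSF10B, the death receptor DR5, read 78.3 and 80 CPM against 57.4 and 56.8 CPM. IL32, a cytokine, went the other way at 45.6 and 44.6 CPM against 62.8 and 63.2 CPM, and the control was lowest at 16.2 and 14.2 CPM (log2 fold change -0.49, SE 0.08, adjusted p = 0.00283). The other lower member was TNFAIP2 (-0.46). Among 22 NF-kB subunits and inhibitors 1 was called, the feedback inhibitor TNFAIP3 (0.81), at 18.8 and 11.5 CPM against 9.21 and 7.96 CPM. Of 34 interferon-stimulated genes 3 were higher and 0 lower: IFI44 (2.75), SAMD9L (1.37) and EIF2AK2 (0.27). IFI44 read 1.51 and 3.67 CPM against 0.206 and 0.556 CPM, so its size rests on few fragments. Of 14 MHC class I genes, TAP2 was higher (0.49) and HLA-B lower (-0.52).

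Of 28 AP-1 factors and immediate early genes 5 were higher and 1 lower, with a median of 0.13, which was -0.025 without siRAB3IP replicate 1. FOSL2, a Fos family factor, read 51.5 and 47.3 CPM in siRAB3IP against 31.4 and 28.7 CPM in siCAMSAP1, and the control was lowest at 23.2 and 23.2 CPM (log2 fold change 0.71, SE 0.09, adjusted p = 0.000701). JUN, its partner in AP-1, read 140 and 108 CPM against 92.4 and 74.8 CPM. Of 19 MAPK feedback genes 3 were higher, DUSP1 (0.37), DUSP10 (0.83) and SPRY2 (0.44), and 0 lower, with a median of 0.28.

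The lists around RAB3IP and CAMSAP1 function held called genes in both directions, as did all genes tested (5.68% higher, 4.4% lower). Those shares rise with level, so these lists are not shown to stand out. Of the genes named here RAB8B and SPAST carry TGACTTAA and PACSIN2 carries ACATCCCA. Of 33 genes of RAB3IP, RAB8 and RAB11 trafficking 2 were higher (PACSIN2 and RAB3B) and 5 lower, with a median of -0.09. RAB8B, a close relative of the GTPase that Rabin8 activates, read 21.4 and 21.6 CPM in siRAB3IP against 32.2 and 31 CPM in siCAMSAP1, with the control at 30.5 and 31.7 CPM (log2 fold change -0.56, SE 0.09, adjusted p = 0.00312). PACSIN3 (-0.41), RAB3D (-0.52), the exocyst subunit EXOC1 (-0.35) and RAB11FIP1 (-0.25) were the other lower members. Of 33 microtubule-associated and CAMSAP family genes 3 were higher (KATNAL1, MAP1B and DCLK1) and 3 lower (MAP6, SPAST and CLASP1). KATNAL1, a katanin-like severing protein, read 51.9 and 58.7 CPM against 33.1 and 38.7 CPM, and its control libraries at 46 and 54.8 CPM were nearer to siRAB3IP. MAP6, which stabilises microtubules in neurons, read 13.2 and 7.88 CPM against 22.7 and 20.4 CPM, and the control at 13.6 and 13 CPM lay near siRAB3IP (log2 fold change -1.04, SE 0.18).

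Of 33 tested sphingolipid genes, 24 lay above 0, 5 were called higher and 3 lower, with a median of 0.14. CERS6, a ceramide synthase, read 82.9 and 93.7 CPM against 49.8 and 59.1 CPM, and CERK, which phosphorylates ceramide, 105 and 96.3 CPM against 69.8 and 63.5 CPM. SPTLC3, a subunit of the enzyme that starts sphingolipid synthesis, read 4.78 and 5.14 CPM against 1.93 and 2.15 CPM (log2 fold change 1.27, SE 0.19). The lower members besides SGPL1 were ORMDL1 (-0.41), which restrains that enzyme, and KDSR (-0.29). Of 31 cholesterol and fatty acid synthesis genes 3 were higher and 7 lower, with a median of -0.16. HMGCS1, of the mevalonate pathway, read 146 and 133 CPM against 216 and 205 CPM, with the control between at 183 and 171 CPM (log2 fold change -0.60, SE 0.08, adjusted p = 0.000868). INSIG1, which retains SREBP factors in the endoplasmic reticulum, read 124 and 137 CPM against 176 and 176 CPM, and the control at 137 and 140 CPM lay with siRAB3IP. Of 32 hypoxia and glycolysis genes 6 were higher and 2 lower. HK2, a hexokinase, read 56.4 and 52 CPM against 31.4 and 33.2 CPM (log2 fold change 0.74, SE 0.09), and SLC2A1, the glucose transporter GLUT1, 84.9 and 73.6 CPM against 55.9 and 50 CPM.

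For some members of the next lists the control lay nearer to siRAB3IP than to siCAMSAP1. Of 30 YAP and TEAD targets, genes that respond to cell tension and density, 0 were higher and 8 lower in siRAB3IP, with a median of -0.15, and the control was nearer to siRAB3IP for 4 of the 8. AMOTL2, a YAP-binding scaffold, read 97.2 and 90.2 CPM in siRAB3IP, 123 and 124 CPM in siCAMSAP1, and 94 and 93.1 CPM in the control (log2 fold change -0.40, SE 0.08, adjusted p = 0.00688). AJUBA, a LIM protein that restrains LATS kinases, read 40.4 and 42.6 CPM against 65.6 and 64.3 CPM, with the control at 49.3 and 47.2 CPM. Of 28 smooth muscle actin and actin-binding genes 2 were higher (VCL and LCP1, the latter not called by DESeq2) and 3 lower. TAGLN, the calponin relative transgelin, read 2.07 and 1.65 CPM against 5.92 and 8.66 CPM, and the control libraries at 2.06 and 1.54 CPM lay with siRAB3IP (log2 fold change -1.98, SE 0.22, adjusted p = 0.000463). TPM1, a tropomyosin, read 77.9 and 114 CPM against 137 and 197 CPM, with the control at 99.5 and 115 CPM. CNN1, calponin, was the third (-1.25). TPM1 was not called by DESeq2. Of 13 tested MARCKS and protein kinase C genes 1 was higher (GAP43, 0.59) and 1 lower. GAP43 was not called by DESeq2, in the fit over all 6 libraries, or without siRAB3IP replicate 2 or siCAMSAP1 replicate 2. The lower one, AKAP12, an anchor for protein kinases, read 344 and 344 CPM against 471 and 504 CPM, and its control libraries at 382 and 402 CPM were nearer to siRAB3IP (log2 fold change -0.51, SE 0.07).

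Of 44 extracellular matrix and integrin genes 3 were higher and 7 lower. COL18A1, a basement membrane collagen, read 28.8 and 35.6 CPM in siRAB3IP against 56.2 and 55.8 CPM in siCAMSAP1, with the control between at 40.5 and 38.9 CPM (log2 fold change -0.80, SE 0.10). THBS2, thrombospondin 2, read 13 and 13.3 CPM against 7.9 and 7.8 CPM, and the control was lowest at 4.66 and 5.06 CPM. Of 42 BMP, activin and TGF-beta genes 3 were higher (BMP2, INHBA and ID3) and 2 lower (TGFB1 and BMPR2), of which DESeq2 did not call INHBA and BMPR2. ID3, a target of BMP signalling, read 79.5 and 70 CPM against 60.7 and 56.1 CPM, and the control was above all 4 at 94.1 and 80.8 CPM. Of 36 Wnt genes 1 was higher, the inhibitor DKK1 at 6.96 and 5.38 CPM against 2.83 and 2.7 CPM, and 6 were lower, among them the receptor FZD2 at 13.8 and 12.5 CPM against 22.8 and 20.7 CPM. Of 23 Notch genes 2 were higher (HES4 and HEY2) and 4 lower (NRARP, JAG1, HES1 and NOTCH3), and DESeq2 did not call NRARP.

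Genes of RNA handling held called members in both directions, and among the splicing regulators HNRNPF had the largest difference. Of 49 splicing regulators 3 were higher and 4 lower. HNRNPF, an RNA-binding splicing regulator whose 3' UTR carries TGACTTAA once, read 289 and 259 CPM in siRAB3IP, 526 and 486 CPM in siCAMSAP1, and 495 and 458 CPM in the control (log2 fold change -0.89, SE 0.08, adjusted p = 0.000126). MBNL1, a muscleblind splicing factor, read 165 and 167 CPM against 107 and 103 CPM, and its control libraries at 145 and 155 CPM were nearer to siRAB3IP (log2 fold change 0.65, SE 0.07). Of 46 core spliceosome genes DDX46 alone was called (0.39), and of 15 genes of RNA interference AGO1 alone, at 98.1 and 99.4 CPM against 120 and 123 CPM (log2 fold change -0.31, SE 0.07, adjusted p = 0.0217). Of 76 cytosolic ribosomal protein genes 10 were higher and 0 lower, with a median of 0.14, and 71 of the 76 lay above 0. RPS19 and RPL22 had log2 fold changes of 0.38 and 0.36. Of 41 replication-dependent histone genes listed, 21 were matched to the count data and 19 were tested. Of these 19, 0 were higher and 7 lower, with a median of -0.36 that leaves out the unmatched genes. Among them H2AC11 read 421 and 363 CPM against 570 and 509 CPM. Histone mRNAs mostly lack poly(A) tails, so their reads here come from the tailed share.

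Of 48 nuclear-encoded respiratory chain subunits 3 were higher and 2 lower, and 1 stood out in size. COX6B1, a subunit of cytochrome c oxidase, read 67.7 and 58.7 CPM in siRAB3IP, 124 and 113 CPM in siCAMSAP1, and 128 and 117 CPM in the control (log2 fold change -0.91, SE 0.09, adjusted p = 0.000174). Of 28 NRF2 targets 4 were higher and 3 lower, 18 lay above 0, and the median was 0.08. HMOX1, heme oxygenase 1, read 11.9 and 11.2 CPM against 23.6 and 18.2 CPM, and GSR, glutathione reductase, 83.8 and 82.4 CPM against 115 and 110 CPM. These 2 were among the lower members, and SLC7A11, which is on this list too, was among the 4 higher ones. Of 21 heat shock chaperones HSF1 was higher (0.31) and HSPB1 lower (-0.66). Of 37 autophagy and lysosome genes 3 were higher and 4 lower, with CTSA, a lysosomal protective protein, at 83.4 and 100 CPM against 58.9 and 54.7 CPM and ULK1, the kinase that starts autophagy, at 23 and 22.1 CPM against 32.3 and 28.3 CPM. Of 42 axon guidance genes 3 were higher and 4 lower. EPHB2, an ephrin receptor, read 19.6 and 17.4 CPM against 29.1 and 28.9 CPM, and NRP1, a semaphorin co-receptor, read 44.8 and 59.1 CPM against 36.3 and 39.1 CPM, with its control libraries at 47.9 and 59.3 CPM near siRAB3IP.

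**Figure D5:**
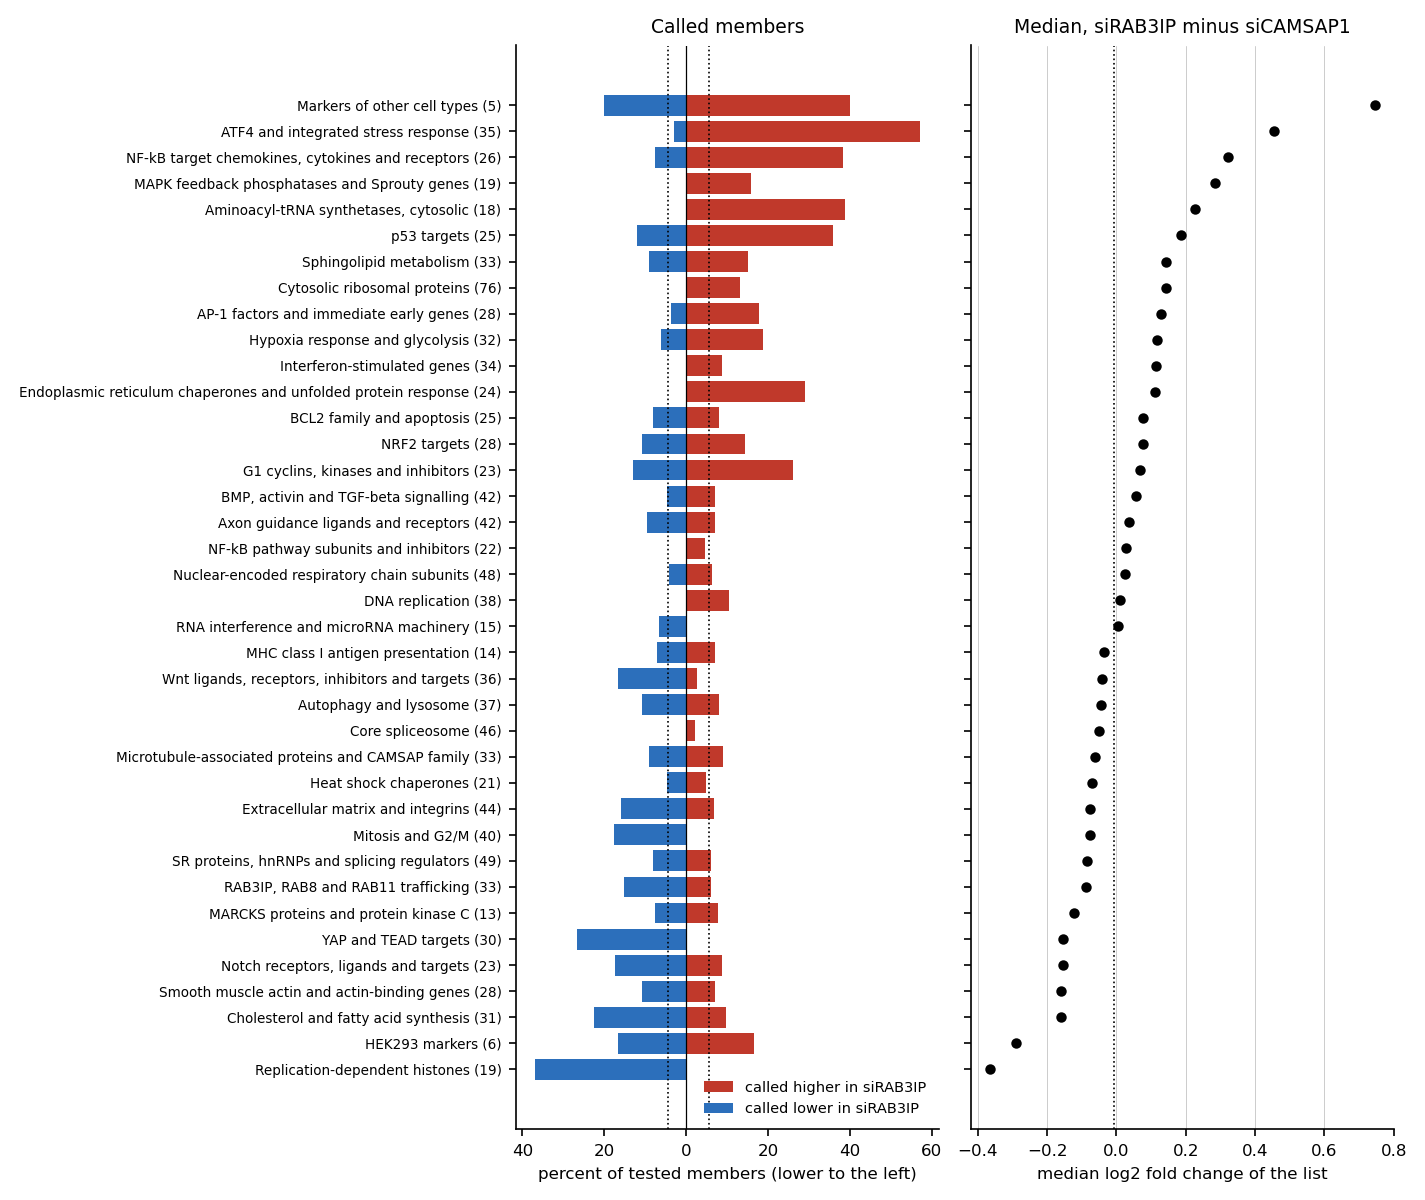
Left, percent of tested members (number in brackets) called higher (right of 0) or lower (left of 0) in siRAB3IP for 38 gene lists, with dotted lines at the shares over all genes tested. Right, the median log2 fold change of each list, with a dotted line at the median over all genes. The highest were 0.75 for the 5 tested markers of other cell types and 0.45 for the ATF4 list. The lowest was -0.36 for the histone list, of which 19 of 41 listed genes were tested.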

How the data were processed

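RNA from 6 HEK293 samples transfected with control, circRAB3IP or circCAMSAP1 siRNA was sequenced as poly(A) libraries. The deposited table holds fragment counts per gene made by the authors with featureCounts 1.6.0, per the file headers, and STAR, DESeq2 and hg19 are named in the submitters' processing notes. It lists 63677 genes, and counts were made without strand. The authors' deposited result tables hold normalized signal values per library, which were used only to check the grouping: all 8 of their columns matched a library of the same group in the count table (tolerance 1e-09 on the log2 scale). There were 0 columns of other samples.

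The 4 libraries were grouped by identifier. Genes kept by edgeR's filterByExpr (21378) were scaled by TMM and tested with edgeR 4.0.16's quasi-likelihood test in R 4.3.3, without covariates, and p-values were adjusted by Benjamini-Hochberg over all genes tested; called means an adjusted p under 0.05. The test was also run on simulated counts with known fold changes, drawn independently for each library with the dispersions of these 4 libraries. The simulation held no deviation shared by same-numbered libraries, so it cannot show how the calls fare with such a deviation. CPM values use TMM library sizes over 6 libraries. Residual degrees of freedom were 2, and depth was 38108240 to 39188378 fragments, so that 3 counts equal 0.0766 to 0.0787 CPM. The named genes are the host genes, the 12 called genes with the largest differences of each sign at a mean of at least 5 CPM, up to 4 called members of each list with the smallest p, and up to 2 of a list by level where none is called. For each word the 5 carriers with the largest difference are shown, and further genes were named after their values were seen (the lower members of lists, genes named to complete a list's count, and ATF4).

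The members and the 38 gene lists were chosen with earlier results of these data known, among them the word TGACTTAA. Of 1214 list entries 1190 were matched by symbol to the files, and 24 were not; 1 further marker of other cell types is not reported here. 3' UTRs came from GENCODE 29 on GRCh38, matched by gene identifier, and log2 ratios for words used a pseudocount of 0.5 CPM. The alternatives tried were scaling by RLE or by the upper quartile, testing without a filter or at a mean of 5 CPM or more, all 6 libraries in 1 fit, DESeq2 1.42.0, limma-voom (limma 3.58.1), a minimum fold of 1.2, replicate blocks, removal of a length trend, grouping by titles and leaving out each library. The word ranking with the composition trend removed, and the removal of a GC and length trend (GC content known for 96.1% of genes), were chosen after seeing the data.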

Additional observations from a re-analysis of the deposited data

How the results depend on the processing

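The counts of 1214 higher and 940 lower genes stayed within 1.5 times under RLE and upper-quartile scaling, the filter at a mean of 5 CPM, the fit over all 6 libraries, DESeq2, limma-voom, removal of a length trend and removal of a GC and length trend. They were 193 and 120 with no filter on low counts, 337 and 211 against a minimum fold of 1.2, and 0 and 0 under grouping by sample titles. Leaving out each library in turn gave 799 to 1310 higher and 612 to 1013 lower genes, the lowest without siRAB3IP replicate 2. Of 139 genes with values in the text, the call was lost for 84 with no filter, 64 against the minimum fold, 9 with DESeq2 and 9 in the fit over 6 libraries; the cause was not tested. Those lost with DESeq2 were BMPR2, GAP43, HBA1, INHBA, KRT17, LCP1, NRARP, TPM1 and VIM, with RLE scaling RAB11FIP1 alone lost it, and with a GC and length trend removed EIF2AK2 alone. Without siRAB3IP replicate 1, 15 of the 139 lost it (adjusted p 0.0543 to 0.244): AGO1, BMPR2, CCNG2, DUSP1, EIF2AK2, GINS3, HBA1, HEY2, ID3, RAB11FIP1, RAB3B, SESN1, TAP2, TNFAIP3 and XPC. Without siRAB3IP replicate 2, 26 of the 139 lost it (adjusted p 0.0532 to 0.293): AGO1, BMPR2, BUB1, EIF2AK2, EXOC1, GAP43, HBA1, HES1, HLA-B, HSF1, INHBA, KDSR, KIF23, LCP1, NOTCH3, NRP1, ORMDL1, RAB11FIP1, RAB3B, SPRY2, TGFB1, TNFAIP2, ULK1, VCL, VIM and VWF. Without siCAMSAP1 replicate 1, 17 of the 139 lost it (adjusted p 0.0525 to 0.242): BMPR2, DUSP1, EIF2AK2, GINS3, HBA1, INHBA, KDSR, LCP1, NOTCH3, RAB11FIP1, SPRY2, TGFB1, TNFAIP2, ULK1, VCL, VWF and XPC. Without siCAMSAP1 replicate 2, 11 of the 139 lost it (adjusted p 0.0513 to 0.192): AGO1, BMPR2, GAP43, HBA1, HEY2, HSF1, ID3, JAG1, KDSR, RAB11FIP1 and RAB3B. Where a library is left out, its group's other library is assumed to vary like the other group.

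With a replicate block by order of identifier 2766 genes were higher and 2458 lower, with 1 residual degree of freedom, and with a replicate block by title numbers 1016 and 732. Nothing in the labels says that a number pairs the libraries; numbered by order of identifier, the deviations of same-numbered libraries of the 2 groups correlated at 0.21 across all genes and 0.45 at 5 CPM or more, and those with the control at 0.25 and 0.26, or 0.45 and 0.54. Under the first block RAB3IP was called, and under the second 10 of the 139 genes lost the call. For the words, carriers minus other genes in replicate 2 were at -0.0062 and 0.023 by the ranking as measured and at -0.11 and 0.14 with the composition trend removed. List medians moved by at most 0.0044 under RLE or upper-quartile scaling and the fit over 6 libraries. Leaving out 1 library turned the sign of 2 to 6 of 38. The list median that moved most shifted by 0.26 without siRAB3IP replicate 1 and by 0.31 without siRAB3IP replicate 2. It shifted by 0.12 without siCAMSAP1 replicate 1 and by 0.38 without siCAMSAP1 replicate 2. Without siRAB3IP replicate 1, the medians that turned were -0.022 for NF-kB pathway subunits and inhibitors, 0.051 for MHC class I antigen presentation, -0.018 for DNA replication, -0.025 for AP-1 factors and immediate early genes, -0.013 for RNA interference and microRNA machinery and -0.007 for nuclear-encoded respiratory chain subunits. Without siRAB3IP replicate 2, the medians that turned were 0.014 for core spliceosome, -0.035 for RNA interference and microRNA machinery and -0.046 for axon guidance ligands and receptors. Without siCAMSAP1 replicate 1, the medians that turned were -0.0048 for RNA interference and microRNA machinery and -0.015 for axon guidance ligands and receptors. Without siCAMSAP1 replicate 2, the medians that turned were 0.011 for MHC class I antigen presentation, -0.0046 for DNA replication, -0.013 for RNA interference and microRNA machinery, -0.0061 for nuclear-encoded respiratory chain subunits and 0.026 for extracellular matrix and integrins.

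Under grouping by sample titles, siCAMSAP1 replicate 1 and control replicate 2 form the circRAB3IP group. The circCAMSAP1 group holds siRAB3IP replicate 2 and siCAMSAP1 replicate 2. In this grouping 130 of the 139 genes changed sign, and none was called. Over all genes tested 643 had an unadjusted p under 0.05 in edgeR's quasi-likelihood test. The only siRAB3IP library used lies on the circCAMSAP1 side, so a change of sign is built into this grouping and does not test the directions above. The log2 fold changes under that grouping are given in ascending order. They ran from IFI44 -2.40, INHBA -1.85, DNAH17 -1.48, OLFM1 -1.36, TNFRSF9 -1.33, RPLP0P2 -1.31, CXCL8 -1.28, LINC02154 -1.25, C11orf96 -1.25, SAMD9L -1.06, PCLO -1.03, LCP1 -0.98 and BMP2 -0.95. Next by value were RAB27B -0.73, VWF -0.71, THBS2 -0.70, DKK1 -0.65, CCBE1 -0.62, THSD4 -0.62, SLC7A11 -0.61, SPTLC3 -0.60, REEP1 -0.54, XBP1 -0.52, DCLK1 -0.51, HK2 -0.49 and HBA1 -0.48. Then came FOSL2 -0.48, ASNS -0.46, SMOC1 -0.44, TAP2 -0.38, CERS6 -0.38, TNFAIP3 -0.33, VIM -0.32, E2F1 -0.31, AEN -0.31, AARS1 -0.31, GADD45A -0.30, CTSA -0.30 and SLC7A1 -0.28. Further values were CDK6 -0.28, PMAIP1 -0.27, TNFRSF10B -0.27, SLC2A1 -0.25, SPRY2 -0.24, DUSP10 -0.24, PSAT1 -0.24, DUSP1 -0.22, RPL22 -0.22, RPS19 -0.21, GINS3 -0.20, DDX46 -0.20 and MAP1B -0.19. After these were HSF1 -0.18, LCLAT1 -0.18, GINS1 -0.18, GAP43 -0.17, HERPUD1 -0.17, EIF2AK2 -0.16, SARS1 -0.15, RRM2 -0.15, PACSIN2 -0.15, KATNAL1 -0.14, JUN -0.12, CERK -0.12 and GARS1 -0.12. The list went on with RAB3IP -0.11, VCL -0.088, TK1 -0.073, CAMSAP1 -0.066, CDKN1A -0.065, HES4 -0.055, ATF4 -0.046, MBNL1 -0.037, NRP1 -0.035, AMOTL2 0.013, INSIG1 0.017, KIF23 0.026 and AKAP12 0.042. Following these were HLA-B 0.047, COL18A1 0.056, KDSR 0.058, AJUBA 0.076, SPAST 0.12, ORMDL1 0.12, HES1 0.13, CLASP1 0.15, AGO1 0.15, COL1A1 0.16, EIF2AK4 0.18, RAB3D 0.19 and HMGCS1 0.19. Above them were BUB1 0.19, WTIP 0.20, EXOC1 0.22, TNFAIP2 0.23, JAG1 0.23, XPC 0.24, PACSIN3 0.25, H2AC11 0.25, ULK1 0.25, BMPR2 0.25, EPHB2 0.26, HSPB1 0.27 and KRT18 0.28. Higher still were RAB8B 0.28, GSR 0.31, FZD2 0.32, MAP6 0.33, CCNG2 0.34, HMOX1 0.35, TGFB1 0.36, TMEM14C 0.36, HMMR 0.38, HNRNPF 0.40, SESN1 0.41, LIMK1 0.42 and KIF5C 0.43. Last were CSDC2 0.46, SGPL1 0.46, BCYRN1 0.47, COX6B1 0.49, CCND1 0.49, NRARP 0.49, ODC1 0.50, RASSF2 0.52, BMF 0.54, COL27A1 0.56, EFEMP2 0.57, STON1 0.65 and NOTCH3 0.87.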
